A study of Mus musculus with 4 samples.

Results

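Small nucleolar RNA (snoRNA) host transcripts were examined in adenomas of the small intestine from mice of genotype APC Min/+, which carry the Min mutation in 1 copy of Apc, a brake on Wnt signalling. There were 2 control libraries from APC Min/+ mice and 2 knockout libraries from mice of genotype PAF KO; APC Min/+, so both groups carried the APC Min allele. PAF here is read as Pclaf, a protein that binds the DNA replication clamp PCNA; the labels spell out no gene. The labels give neither age, strain, sex, the altered part of the PAF gene nor whether tumours were pooled. They do not say that libraries of a group came from separate animals, so p-values measure only the spread between these libraries, which may be technical. The members were 9 symbols, chosen by name as hosts of snoRNAs together with the snoRNA row SNORD47, and that row was picked on its values in this same comparison, 0 in both knockout libraries. Of the 9, 7 were found among 29871 rows: GAS5, SNHG1, SNHG3, SNHG6, SNHG7, SNHG12 and SNORD47, and all 7 had a mean of at least 1 FPKM (fragments scaled to transcript length and to the mapped fragments of the library). SNHG5 and SNHG8 were not found under those symbols. Snhg5 had a row under an older name, 2810026P18Rik, which stands outside the rule and is given separately.

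A snoRNA host is transcribed as a long precursor whose introns contain the snoRNAs. Splicing releases the introns, which are trimmed to short stable RNAs that guide methylation (box C/D class) or pseudouridylation (box H/ACA class) of ribosomal and other RNAs. The spliced exons of the host are a separate product, and those of Gas5 and several Snhg genes are known to be removed by nonsense-mediated decay when they are translated. Host genes are known for transcripts that start with a tract of pyrimidines, a feature shared with ribosomal protein mRNAs, and host and snoRNA levels can differ because the products are of unequal stability.

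Snord47 and 2 other box C/D snoRNAs whose rows behaved like it are shown because the results turn on how short they are. The sequences are GENCODE M21 transcripts (GRCm38), 5′ to 3′. Capitals mark the first match to TGATGA (box C) and the last match to CTGA (box D) on the RNA strand, and Snord42b and Snord88c had no TGATGA.
Snord47: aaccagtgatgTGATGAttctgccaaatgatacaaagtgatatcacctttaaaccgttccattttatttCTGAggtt
Snord42b: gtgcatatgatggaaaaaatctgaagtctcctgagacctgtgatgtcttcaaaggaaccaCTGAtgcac
Snord88c: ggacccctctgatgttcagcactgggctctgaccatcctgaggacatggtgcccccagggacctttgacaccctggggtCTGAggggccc
Of 1507 annotated snoRNA transcripts, 26.1% held TGATGA and 79.5% held CTGA. Snord47 is 77 bases long in GENCODE and 65 in RefSeq. It lies on chromosome 1 inside Gas5, on the same strand. Of 25 Gas5 transcripts, 2 had an exon over it and 0 of these were other than retained-intron forms, so in spliced Gas5 it is intronic.

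The starts of the 4 measured hosts with a pyrimidine run are shown because that run is the feature these genes are known for. Each window covers 20 bases before to 30 bases after an annotated RefSeq start (GRCm38.p6). Capitals mark the longest run of at least 6 C or T letters that touches the 5 bases either side of the start, searched on the transcript strand.
Gas5, chr1:161035146-161035195, plus strand: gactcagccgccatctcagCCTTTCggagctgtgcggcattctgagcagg
Snhg1, chr19:8723467-8723516, plus strand: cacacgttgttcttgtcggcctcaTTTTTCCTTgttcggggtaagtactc
Snhg7, chr2:26640215-26640264, minus strand: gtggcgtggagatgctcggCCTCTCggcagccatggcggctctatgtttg
Snhg12, chr4:132308658-132308707, plus strand: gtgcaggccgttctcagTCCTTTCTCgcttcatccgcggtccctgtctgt
Of the 7 hosts with an annotated window, 5 had such a run in at least 1 window, while 6905 of 32851 RefSeq windows did; the fifth host was Snhg8, which had no row. The match is to letters only. Snhg3 and Snhg5 had no run, and neither had the other annotated start of Gas5.

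Library facts that touch these rows come first. The PAF row 2810417H13Rik read 17.9 and 17.8 FPKM in control adenomas, against 4.13 and 11.4 in PAF KO ones, or 23.2% and 63.9% of the control mean. Most of the PAF transcript level was thus still read in the second library labelled PAF KO. The labels do not say which part of the gene was altered, so this row does not settle whether that library matches its label. Knockout libraries 1 and 2 are named here by their labels only. The epithelial markers were present in every library, with summed levels over 9 genes of 6828 to 8051 FPKM. Knockout library 2 stood apart in markers of several other cell types, less so in those of endothelium. Summed over 6 smooth muscle markers it held 725 FPKM, against 189 to 201 in the other 3 libraries. Over 4 fibroblast markers it held 499.95 FPKM against 212 to 269, and over 5 tested immune markers 40.3 against 15.7 to 18.6. Both knockouts were above both controls in 5 smooth muscle, 4 fibroblast and 2 immune markers (21.5% of all rows). The immune marker Cd3e went the other way, at 1.68 and 2.31 FPKM in the controls against 0.819 and 1.04 in knockout libraries 1 and 2. Over 3 endothelial markers knockout library 2 held 51.0 FPKM against 41.5 to 47.2. Cdh5 was lower in knockout library 2 (12.4 against 25.9 to 27.6) and Pecam1 higher (29.5 against 12.3 to 16.2). The most common FPKM ratios between libraries, in rows of under 0.5 FPKM, were read as equal numbers of fragments, which was not tested. On that reading the relative depths were 75.3% for control library 1 and 87.3% for knockout library 1, taking control library 2 as 100%. Knockout library 2 shared no such ratio, and its depth was not placed.

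Snord47 was listed at 416 and 313 FPKM in control libraries 1 and 2 and at 0 in both knockout libraries. These values chose the row and are given with no test. The groups did not overlap, and both knockouts lay at the bottom of the scale. Among 3317 rows of under 0.5 FPKM that were above 0 in both controls, the most common ratio of control library 1 to control library 2 was 1.33, found in 409 rows within 0.1%. That ratio was read as what an equal number of fragments gives in these libraries. Snord47 had it too: in smallest whole numbers its values stood as 1 in control library 1, 1 in control library 2 and 0 in knockout library 1.

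Whole numbers fix a ratio, and the length of the RNA bears on the number itself. In most of these rows a fragment was worth more FPKM the shorter the RNA was. On the scale of control library 2 the smallest step was 457 FPKM for Snora61 (62 bases in RefSeq), 400.1 for Snord49b and Snord57 (63 bases), 313 for Snord47 (65 bases) and 279.6 for Snord12 (66 bases). Snord47 fell in that order if each control held 1 fragment. With 2 fragments in each control its step would be 157 FPKM, below that of the longer Snord12. The order was not kept by every row. Among the rows below it were Snord43 (48 bases, 264 FPKM), Snord65 (57 bases, 299 FPKM) and Snord34 (66 bases, 236 FPKM). Among those above it were Scarna2 (61 bases, 1053 FPKM), Snord49a (62 bases, 1371 FPKM), Snord2 (68 bases, 453 FPKM) and Snord33 (82 bases, 223 FPKM). Of these, Snord43, Snord65, Snord34, Snord49a and Snord2 were above 0 in only 1 of the first 3 libraries. Their step is the whole value, with no ratio behind it. Snord33 stood as 1, 1 and 2 in smallest whole numbers, so such numbers can understate the fragments. The lengths are RefSeq's and need not be those behind the table. GENCODE gives 130 bases for Snora61, against 62 in RefSeq. The reading of Snord47 as 1 fragment is therefore an assumption. Snord12, made from the host Zfas1, showed what more fragments look like, at 1485, 1957 and 2242 FPKM in the first 3 libraries, in the ratio 4 to 7 to 7.

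**Figure D1:**
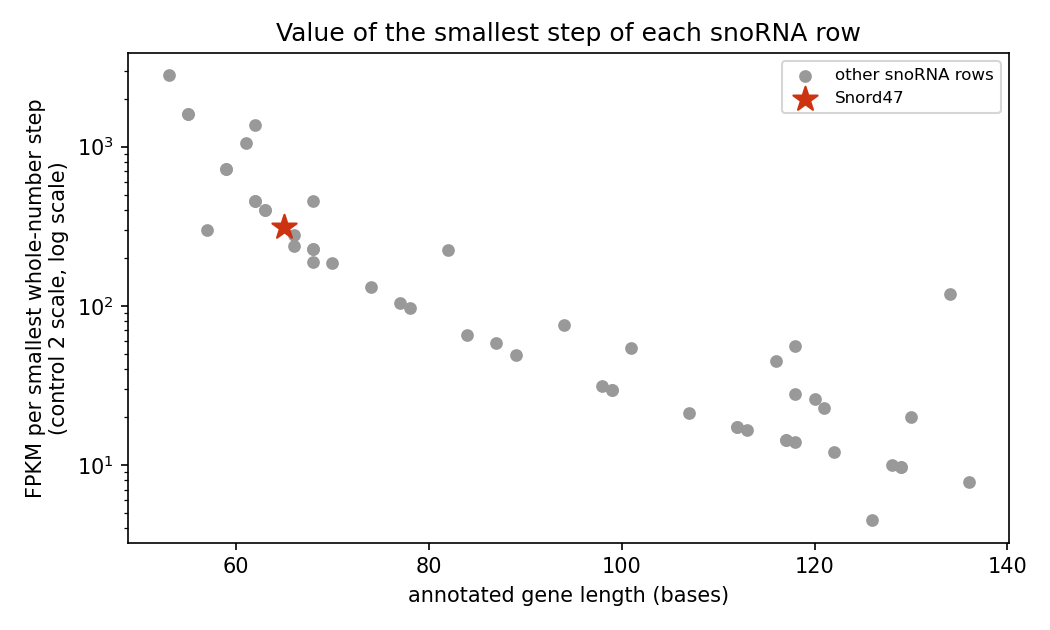
The FPKM value of the smallest whole-number step of each snoRNA row (log axis, scale of control library 2) is plotted against the annotated RefSeq length in bases. Snord47 (star, 313 FPKM at 65 bases) lies between the rows of 63 bases (400.1 FPKM) and Snord12 at 66 bases (279.6 FPKM), and some rows lie above or below this order. For rows above 0 in only 1 of the first 3 libraries, the step is the whole value, with no ratio behind it.

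A count of 0 allows up to 3 fragments, for counting error only. With the step taken as 1 fragment, that limit was 1076 FPKM for Snord47 in knockout library 1, above the 416 and 313 FPKM of the controls. Under that assumption a difference of Snord47 between the controls and knockout library 1 was not detectable at this depth. No limit was set for knockout library 2, where the worth of 1 fragment was not found. Snord42b and Snord88c also stood as 1, 1 and 0 in smallest whole numbers, at 2139 and 1611 FPKM and at 87.0 and 65.5 FPKM in the controls and at 0 in both knockouts. In all, 4 snoRNA rows had that pattern, with Snord58b as the fourth.

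Rows of snoRNAs were listed at 0 in nearly all cases in knockout library 2 but not in knockout library 1. Among the 68 snoRNA rows that averaged 1 FPKM or more, 24 were at 0 in control library 1, 18 in control library 2, and 19 and 64 in knockout libraries 1 and 2. Knockout library 1 thus lay between the controls. Among the rows above 0 in knockout library 2, Snora81 read 1060 FPKM there. It read 5.05 and 30.4 FPKM in control libraries 1 and 2 and 17.4 in knockout library 1. Of the 33 rows above 0 in both controls, knockout libraries 1 and 2 listed 7 and 29 at 0, and the 7 were at 0 in both. Between the controls themselves, 17 rows were at 0 in library 1 alone and 11 in library 2 alone. Of 50 snoRNA rows above 0 in at least 2 of the first 3 libraries, 37 stood in whole-number ratios of up to 12, within 0.1%, and the median of these numbers was 1 in each control and 2 in knockout library 1.

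The zeros of knockout library 2 were most frequent in rows of short transcripts. Of 110 tested rows whose longest transcript was at most 150 bases, 106 were at 0 in that library, against 35 to 41 in the others. Of 118 tested small RNA rows (named as snoRNAs, microRNAs or small nuclear RNAs), 113 were at 0 there, so length and RNA class cannot be told apart. For 151 to 300 bases, 7 of 15 were at 0 in knockout library 2. Their median difference from the control mean was -1.15 on the log2(FPKM + 1) scale, against 0.41 in knockout library 1. For 301 to 500 bases, 5 of 61 were at 0 and that median was 0.82, against -0.09 in knockout library 1. It was 0.29 for 501 to 1000 bases and 0.09 for 2001 to 4000 bases. Host lengths depend on the transcript taken. The longest GENCODE transcript, the measure used for these groups, has 2556 bases for Gas5, 2728 for Snhg1, 581 for Snhg3, 816 for Snhg6 and 1538 for Snhg12, while transcripts without retained introns have median lengths of 502, 550, 437, 559 and 915 bases. In knockout library 2 the hosts went both ways, with Gas5, Snhg1 and Snhg6 above the control mean and Snhg3, Snhg7 and Snhg12 below it.

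**Figure D2:**
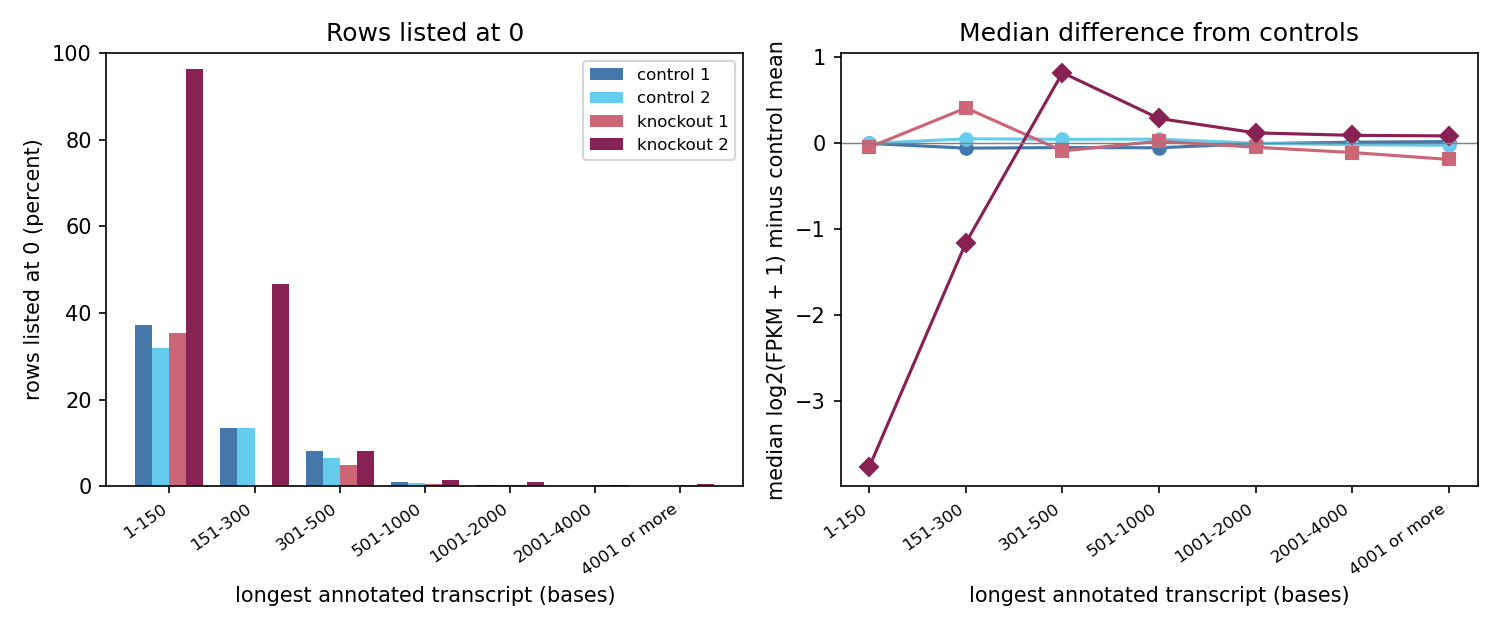
For tested rows grouped by the longest annotated transcript in bases, the left panel gives the percent listed at 0 in each library and the right panel the median difference from the control mean on the log2(FPKM + 1) scale. Knockout library 2 has 106 of 110 rows of at most 150 bases at 0 and a median of 0.82 at 301 to 500 bases, while the other 3 libraries have 35 to 41 of those 110 rows at 0.

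Gas5, the host of Snord47, was present at a like level in all 4 libraries. It read 295 and 277 FPKM in control adenomas, against 267 and 330 in PAF KO ones, or 93.3% and 115% of the mean of the controls. The knockouts lay on either side of both controls. Knockout over control, its log2 ratio was 0.05 (limma adjusted p = 0.905; SE 0.213, 2 libraries a group), with a 95% interval from -0.55 to 0.66. Gas5 thus did not follow the Snord47 row to 0, and the interval leaves room for changes of up to about that size in either direction. Without knockout library 2 the log2 value was -0.10, and without knockout library 1 it was 0.21.

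Snhg1, which hosts a run of box C/D snoRNAs, read 53.0 and 60.8 FPKM in control adenomas, against 59.7 and 90.7 in PAF KO ones. Knockout library 1 lay within the controls and knockout library 2 above them. The log2 fold change was 0.37 (SE 0.274; limma adjusted p = 0.564). Snhg6, host of Snord87, read 48.1 and 46.0 FPKM against 39.8 and 86.6. Its knockouts lay on opposite sides of the controls. The log2 fold change of Snhg6 was 0.32 (SE 0.428; adjusted p = 0.719).

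Snhg3, host of the box H/ACA pair Snora73a and Snora73b, read 66.8 and 80.1 FPKM in control adenomas, against 89.4 and 67.6 in PAF KO ones, with a log2 fold change of 0.09 (SE 0.231; limma adjusted p = 0.857). With the length trend removed it was -0.11. The groups overlapped, with knockout library 1 the highest. Snhg12, host of Snora16a, Snora44, Snora61 and Snord99, read 23.4 and 22.7 FPKM against 26.7 and 16.3 (log2 fold change -0.14, SE 0.287; adjusted p = 0.816). Snhg7 was the lowest of the hosts, at 8.16 and 9.19 FPKM in control adenomas, against 12.2 and 6.12 in PAF KO ones (log2 fold change 0.0050, SE 0.360; adjusted p = 0.996). In Snhg7 and Snhg12 knockout library 1 was the highest library and knockout library 2 the lowest, the reverse of Gas5 and Snhg6.

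**Figure D3:**
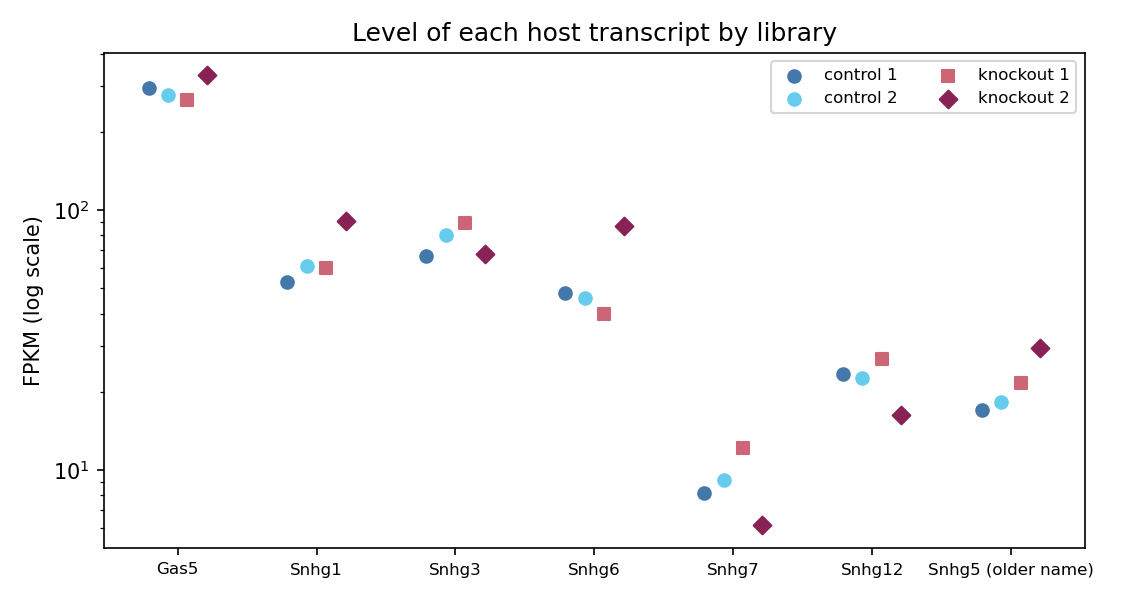
FPKM (log axis) of each host in each library, with circles for controls, squares for knockout library 1 and diamonds for knockout library 2. Gas5 is highest at 267 to 330 FPKM, and no host found under its symbol has both knockouts on the same side of both controls.

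As a group, the hosts were not at 0 in knockout library 2, where 64 of 68 snoRNA rows were. In knockout library 1 the number of snoRNA rows at 0 (19) lay between those of the controls. No snoRNA row was matched inside Snhg3 or Snhg7. With limma, 0 of 6 hosts were called at an adjusted p under 0.05, where 0.0729% of 13716 rows were called. At an unadjusted limma p under 0.05 there were 0 of 6 hosts, against 13.2% of rows. The median log2 fold change of the 6 was 0.07, against 0.0035 over all tested rows. By library the host median lay 0.14 above the control mean in knockout library 1 and 0.05 above it in knockout library 2, while the medians over all rows were -0.11 and 0.09. The number of hosts with both knockouts above both controls was 0 (21.5% of all rows), and with both below it was 0 (30.2% of all rows). In 4 of 6, Gas5, Snhg6, Snhg7 and Snhg12, 1 knockout library was above and the other below both controls, as in 30.4% of all rows. With knockout library 1 left out, 4 of 6 hosts passed the adjusted threshold (Snhg1 and Snhg6 higher, Snhg7 and Snhg12 lower), where 61.2% of all rows did, and the lone knockout library was assumed to vary like the controls. With knockout library 2 left out 0 of 6 passed, where 20.7% of rows did. In bulk tissue, fewer cells of a type and less RNA per cell cannot be told apart. Summed smooth muscle, fibroblast and immune marker values were also highest in knockout library 2, and their part in these host values was not tested.

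**Figure D4:**
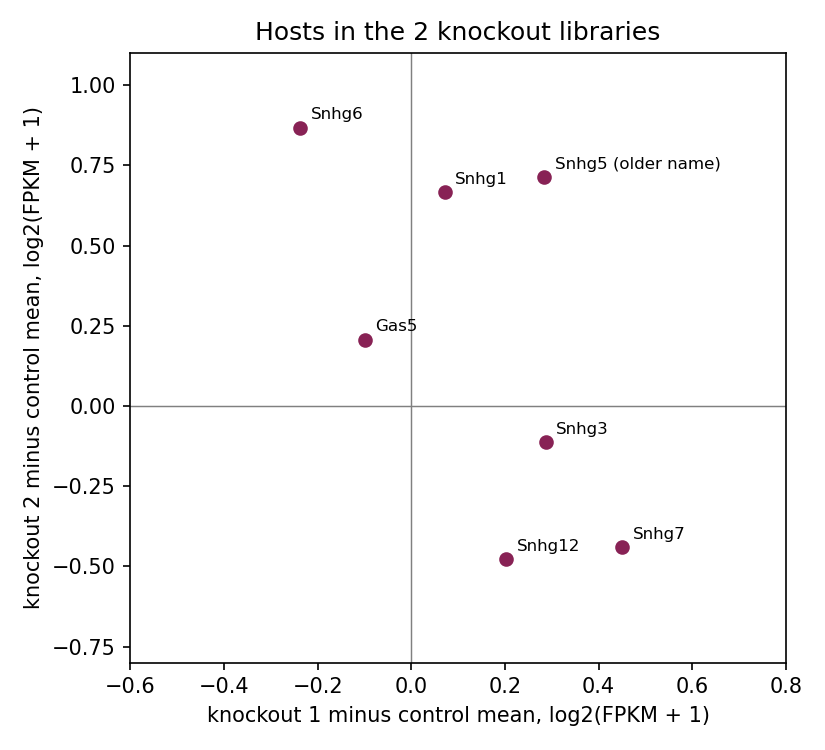
Each point is a host, with its difference from the control mean on the log2(FPKM + 1) scale in knockout library 1 (horizontal) and knockout library 2 (vertical). Gas5 and Snhg6 lie left of 0 and above it, Snhg3, Snhg7 and Snhg12 right of 0 and below it, and Snhg1 and the older-name row of Snhg5 are above 0 in both.

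The order of host levels per length was Gas5, Snhg3, Snhg1, Snhg6, Snhg12 and Snhg7 in both controls and in knockout library 1. Control means were 286 ± 13.2 FPKM for Gas5, 73.4 ± 9.43 for Snhg3, 56.9 ± 5.57 for Snhg1, 47.0 ± 1.54 for Snhg6, 23.1 ± 0.537 for Snhg12 and 8.67 ± 0.725 for Snhg7 (SD, n = 2). Values of neighbours in this order did not overlap between the controls. In knockout library 2 the middle of the order changed, with Snhg1 at 90.7 and Snhg6 at 86.6 FPKM above Snhg3 at 67.6.

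Snhg5, host of Snord50a and Snord50b, was read from the row 2810026P18Rik. It held 16.9 and 18.2 FPKM in control adenomas, against 21.6 and 29.5 in PAF KO ones. Both knockouts lay above both controls, at 123% and 168% of the control mean, but the row was not called (log2 fold change 0.50, SE 0.217; limma adjusted p = 0.426). Snhg8 had no row by symbol or older name.

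Other snoRNA rows inside the hosts could be read for few genes. GENCODE places 29 entries of the snoRNA class inside hosts on the same strand, 10 of them in Gas5, and 9 matched a row, with Snora16a entered more than once. Within Gas5 the single row was Snord47. Snord22, inside Snhg1, read 84.6 and 83.8 FPKM in control adenomas, then 78.4 and 0 in knockout libraries 1 and 2. It held a level like the controls in knockout library 1, and its values were not in a whole-number ratio. An exon of 1 Snhg1 transcript that is not a retained-intron form covers it, so reads of the host and the snoRNA cannot be told apart there. Snord87, inside Snhg6, read 175 FPKM in control library 1 and 0 in the other 3 libraries. With no second value above 0 it gives no ratio, so its number of fragments was not read. Zeros in that row thus arose within the control group too.

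Snhg12 contains Snora16a, Snora44, Snora61 and Snord99, and each is covered by an exon of 2 to 5 of its 10 transcripts, so reads of host and snoRNA cannot be told apart there either. Snora16a read 20.8, 15.7, 44.8 and 0 FPKM in control libraries 1 and 2 and knockout libraries 1 and 2, in the ratio 2 to 2 to 5 for the first 3. Snora44 was at 0 in control library 1, 72.1 in control library 2, and 66.1 and 0 in knockout libraries 1 and 2. Snora61 was at 0, 457, 523 and 0 FPKM, and Snord99 was at 0 in all 4. In the Snhg12 rows, knockout library 1 held fragments of 3 snoRNAs and knockout library 2 of 0. The host itself read 16.3 FPKM in knockout library 2. Snora24, inside Snhg8, differed from these rows in being above 0 in every library, at 6.78, 6.39, 8.18 and 9.67 FPKM.

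Hosts of the other snoRNA rows were read in the same way. Of 68 tested snoRNA rows, 59 lay inside a gene with a row, and there were 49 such host rows. Hosts of the 7 snoRNA rows above 0 in both controls and at 0 in both knockouts stood at a median of 105% and 180% of the control mean in knockout libraries 1 and 2. Hosts of the other rows stood at 90.6% and 139%. The groups of hosts overlap, as Rpl13a and Rpl23a contain snoRNAs of both kinds and count in both medians. The 7 include Rpl23a, host of Snord42b, a ribosomal protein gene with near-identical copies in the genome whose row read at most 0.333 FPKM in the first 3 libraries, and such rows are uncertain. Rpl17, host of Snord58b, was also low, at 1.81 and 1.27 FPKM in control adenomas, against 1.77 and 1.32 in PAF KO ones. The gene 2410002F23Rik, which contains Snord88c, read 21.3 and 19.9 FPKM in control adenomas, against 21.8 and 22.5 in PAF KO ones.

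Other hosts and the machinery that makes and removes these RNAs were read from lists chosen by function. None of the lists named here had a member called by limma (0.0729% of all rows were called), and for each the count at an unadjusted p under 0.05 was 0 or 1 (13.2% of all rows). Of a list of 14 other non-coding host genes, 9 were tested, with a median log2 fold change of -0.10. Mir17hg, on that list but known as a host of microRNAs, had the smallest p, at 2.20 and 3.15 FPKM in control adenomas, against 4.63 and 8.52 in PAF KO ones (log2 fold change 1.01, SE 0.349; adjusted p = 0.374). Among 36 coding hosts, mostly ribosomal protein and translation factor genes, the median was 0.30, and by library it was 0.0061 (knockout 1) and 0.73 (knockout 2). Eef2, translation elongation factor and host of Snord37, read 2011 and 2013 FPKM in control adenomas, against 1181 and 900 in PAF KO ones (log2 fold change -0.96, SE 0.269; adjusted p = 0.325).

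Of 4 core genes of the box C/D particle, 0 passed the test, and each read highest in knockout library 2. Fbl, the methyltransferase fibrillarin, read 4.83 and 5.37 FPKM in control adenomas, then 6.28 and 15.8 in knockout libraries 1 and 2. Nop58, a scaffold of the particle, read 38.5 and 39.0 against 46.6 and 90.4 FPKM. Snu13, which binds the kink of the guide RNA (row Nhp2l1), read 12.3 and 13.7 against 15.2 and 77.3 FPKM. In 3 of 4 core genes both knockouts were above both controls, as in 21.5% of all rows. The median log2 fold change of the 4 was 0.79, and by library the medians were 0.24 (knockout 1) and 1.33 (knockout 2). The box H/ACA core (Dkc1, Nhp2, Nop10 and Gar1) had a median of 0.28. Dkc1, the pseudouridine synthase, read 14.2 and 14.5 against 16.4 and 27.2 FPKM. The genes of the box H/ACA core likewise each read highest in knockout library 2, and 3 of 4 had both knockouts above both controls. For 12 tested assembly factors the median was 0.18.

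Nonsense-mediated decay genes, whose pathway is known to degrade spliced Gas5, were tested for 14 members with a median of 0.04 (log2 fold change), with -0.09 and 0.21 for knockout libraries 1 and 2. Both knockouts were above both controls in 4 members (21.5% of all rows) and below both controls in 4 (30.2% of all rows). Smg5, which recruits decay enzymes, read 30.2 and 28.6 FPKM in control adenomas, against 24.3 and 19.7 in PAF KO ones (SE of the log2 fold change 0.182; limma adjusted p = 0.434). Casc3, a core part of the exon junction complex, read 21.7 and 20.7 against 16.9 and 13.2 FPKM. In the other direction, Upf3b read 11.7 and 11.3 against 13.9 and 23.6 FPKM and Upf2 read 8.15 and 8.03 against 9.04 and 14.2, both of them factors of the same surveillance complex.

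The exonuclease and debranching list had a median of 0.09 over 14 tested members. Its members with both knockouts above both controls numbered 3 (21.5% of all rows), and those with both below 3 (30.2% of all rows). Exosc5, a subunit of the RNA exosome, read 43.5 and 41.5 against 24.0 and 25.9 FPKM (log2 fold change -0.75, SE 0.154; adjusted p = 0.279). Exosc4, another subunit, read 17.0 and 17.0 against 13.3 and 13.9 FPKM. Other exosome subunits went the other way, with Exosc7 at 18.3 and 18.3 against 24.6 and 40.3 FPKM and Exosc2 at 15.1 and 17.1 against 21.4 and 21.5. Of the long non-coding RNAs that are not on the host lists, Neat1 read 72.0 and 67.8 against 132 and 108 FPKM (log2 fold change 0.77, SE 0.189; adjusted p = 0.303). None of these decay genes, exosome subunits and Neat1 passed the test.

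The rows closest to Gas5 in their pattern over the 4 libraries, by Euclidean distance of log2(FPKM + 1) values centred on the row mean, were Vim (distance 0.0171), Mkiaa1673, Lrrc31, Cybasc3 and Farp2 (0.0230). Vim read 92.2 and 85.2 FPKM in control adenomas, against 82.9 and 103 in PAF KO ones. With 4 libraries and 13716 rows this likeness is a description only.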

How the data were processed

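RNA-seq of 4 adenoma libraries was used, 2 per genotype. The authors deposited FPKM values, 1 column per library; the submitters' processing notes name TopHat2, Cuffdiff and mouse build mm9. Their versions, the annotation and fragment settings are not stated. Of 29955 rows, 84 repeated a symbol and the row of higher mean was kept. Symbols were matched to RefSeq (GRCm38.p6), and lengths and containment came from GENCODE M21. As the builds differ, coordinates are given only for printed windows. The 13716 rows averaging 1 FPKM or more entered limma (3.58.1, under R 4.3.3) as log2(FPKM + 1), with a variance trend, Benjamini-Hochberg adjustment over all rows and a threshold of 0.05. Fold changes are on that scale, which understates changes of low rows. Members and lists were chosen with earlier results of these data known. Named rows were the members, snoRNAs inside them, called snoRNA rows with their hosts, the 4 members of smallest p per list and the 5 rows nearest to Gas5; other snoRNA rows named for their steps, zeros or hosts were chosen after their values were seen. FPKM steps were read as whole fragments by the ratios most common between libraries. The limma script was tested on simulated data; the reading of steps was not. Depth in fragments is unknown.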

Additional observations from a re-analysis of the deposited data

How the results depend on the processing

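The count of 0 hosts called held under every alternative run except without knockout replicate 1, where it was 4. Leaving out 1 library at a time gave 0 to 8397 called rows over the table: 0 with either control left out, 8397 without knockout library 1, and 2833 when knockout library 2 was dropped. It gave host medians of 0.029 to 0.149 and 0 to 4 hosts called. Called rows numbered 4 with no filter, 0 without small RNA rows and 0 with the transcript-length trend removed (added after seeing the data; Snhg7 had no length and was left out, so the host median is over 5), against 10. Median centring moved the host median from 0.070 to 0.128. The log2 fold change of Snhg7 turned to -0.0021 and -0.0030 with pseudocounts of 0.1 and 0.01. Leaving out knockout library 1 or knockout library 2, in that order, gave 0.21 and -0.10 for Gas5, -0.11 and 0.29 for Snhg3, 0.87 and -0.24 for Snhg6, -0.44 and 0.45 for Snhg7, and -0.48 and 0.20 for Snhg12. Leaving out control library 1 turned Snhg3 to -0.042 and Snhg7 to -0.071, and removing the length trend turned Snhg3 to -0.11. Of 89 single-host values under alternatives, 76 kept direction and side of the threshold and 10 changed sign; the cause was not tested. With rows of at least 10 FPKM, control library 2 had 11 snoRNA rows at 0, against 18. With the replicate number as a block, 13 rows and 0 hosts were called. Control and knockout replicate differences correlated at -0.115 over rows, and crossing the numbers (added after seeing the data) also gave 13 and 0. Snord47, whose values chose the row, is given no fold change, although it is among the called rows.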
